A study of Rattus norvegicus with 8 samples.

Results

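The control channels of the arrays compared the small intestine with the spleen of rats that had not received lavender oil (LO). Members of the comparison were the array features that lay well above background, by the flag of the scanner software, in the control channel on both arrays of at least 1 of the tissues. This held for 27920 of the 43379 non-control features, of which 22778 passed through both tissues, 2912 through the small intestine only and 2230 through the spleen only. Copies of a probe were averaged, which gave 26288 member probes. The rats were males, 7 weeks old. The sample labels give their strain as Wistar, while the growth protocol and the methods of the study name F334 (Fischer) rats. The control group of 6 rats received 10% ethanol without LO into the stomach once a day for 13 days, and a second group of 6 rats received LO at 5 mg/kg in 10% ethanol by the same route. Every rat compared had therefore been given ethanol. The intestinal segment was taken about 20 cm from the duodenum and washed in saline, and the spleen was taken whole. Total RNA was pooled within each group, so that each tissue had 1 control pool, hybridized on 2 arrays with the dyes exchanged. Control RNA carried Cy3 on replicate 1 and Cy5 on replicate 2, with the LO pool of the same tissue in the other dye. The slide differed between the tissues, and a difference between tissues and one between slides cannot be told apart.

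The small intestine digests and absorbs food through a single layer of enterocytes, whose brush border holds peptidases, disaccharidases and transporters. Goblet, Paneth and enteroendocrine cells of the same layer secrete mucus, antimicrobial proteins and hormones, and lymphocytes, muscle and neurons lie around it. The spleen filters the blood in its red pulp, where macrophages take up old red cells, and holds B and T cells in its white pulp. In rats the adult spleen also makes red cells.

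Because each tissue had 1 control pool, the difference between the control pools was described and not tested. A probe was called where the log2 signal differed by at least 1, that is 2-fold, in the same direction in Cy3 and in Cy5. By this rule 4506 member probes were higher in the small intestine (17.1% of the 26288) and 5450 were higher in the spleen (20.7%). Of the 21485 member probes above background on both arrays of both tissues, 2797 were higher in the small intestine and 3986 were higher in the spleen. A measured difference of at least 16-fold in each dye was reached by 834 probes toward the small intestine and by 342 toward the spleen, and by 233 and 158 among the 21485 probes above background in both tissues. Across member probes, which are not independent replicates, the Cy3 and Cy5 differences had a correlation of 0.961, and the median SD of both dyes was 0.159 on the log2 scale. Between 59.0% and 67.7% of the features were well above background in a control channel, and 0 were saturated. The log2 ratios of LO over control, turned by the labelled dyes, had a correlation of -0.575 between both arrays of the small intestine and of -0.511 between those of the spleen. The cause of these negative values was not tested, and tissues were compared within a dye. That the swapped channel holds control RNA rests on the labels. In the whole tissue, fewer cells of a type and less RNA per cell cannot be told apart.

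The LO pools hold other rats on the same arrays and were not used to choose the members. In them the rule called 17.4% of the member probes higher in the small intestine and 21% higher in the spleen. Of the 9956 probes called in the control pools, 9307 passed the same rule in the LO pools and 0 passed it in the opposite direction. The limma fit over the 8 pools of the series (control and LO pools of small intestine, spleen and both liver pools) called 6719 member probes higher in the small intestine (25.6%) and 8873 higher in the spleen (33.8%) at an adjusted p below 0.05. It called 9511 of the 9956 probes in the same direction. The fit includes the control channels by which these probes were chosen and called, so this count is not a separate check. Of the 6495 genes with a symbol it called 2016 higher in the small intestine (31%) and 2274 higher in the spleen (35%). Each of its p-values compares tissues that lie on separate slides, and the control and LO pools of a tissue share arrays.

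Gene symbols could be given to 8025 of the member probes, for 6495 genes, and each gene was read by its brightest member probe. Of the 6495 genes, 1387 (21.4%) were higher in the small intestine and 1354 (20.8%) were higher in the spleen, with a median log2 difference of -0.085 over all of them. Among the 5526 genes above background on all 4 control channels these shares were 16.7% and 19.5%. Every count of a gene list below is to be read beside these shares. All signals below are quantile-scaled control-channel intensities in arbitrary units, given for replicate 1 and then replicate 2. Differences are log2 of small intestine minus spleen, as the mean ± SD of the 2 dyes. This SD covers error of labelling and hybridization and leaves out the spread among rats.

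The 10 genes with the largest differences toward the small intestine were mostly genes of digestion and absorption. *Prap1*, which encodes a secreted proline-rich acidic protein of the gut epithelium, gave signals of 110002 and 113823 in the small intestine against 7.2 and 4.0 in the spleen. *Fabp2*, the intestinal fatty acid binding protein, gave 105107 and 131742 against 8.4 and 4.6. Both spleen values of each gene were not well above background, so that the measured differences of 14.34 ± 0.62 and 14.20 ± 0.83 are not well bounded from above. A bound was therefore computed, in which the dim array took the higher of its own signal and the lowest signal of any feature well above background there. It is not a strict limit, because signals without the flag can lie above that lowest signal. In the spleen *Ghrl* did so, with 21.1 and 28.5 against lowest signals of 16.2 and 25.8. Every "at least" below is meant by this bound. By this bound *Prap1* was at least 5474-fold and *Fabp2* at least 5757-fold higher in the small intestine. The others included *Alpi* (intestinal alkaline phosphatase), *Rbp2* (cellular retinol binding protein), *Cyp3a9* (a drug-oxidizing cytochrome P450), and 4 digestive enzymes, *Amy2a3*, *Amy1*, *Cpb1* and *Pnlip*. Each of these was above background on both small intestine arrays and on neither spleen array, with bounds from 2381-fold for *Cyp3a9* to 5462-fold for *Amy2a3*. In the liver control pools, scaled over all 16 channels, *Amy1* was at 43616 and 39571. There *Amy2a3*, *Cpb1* and *Pnlip* were at most 134.9. Of all called probes, 220 toward the small intestine and 129 toward the spleen had a bound under 2-fold.

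Toward the spleen, *Rhag*, *Slc4a1*, *Nfe2* and *Alas2* of the red cell list were among the 10 largest measured differences. *Hbe1*, *Add2* and *Hemgn*, which the list does not hold, are also known from red cells or their precursors. The order of the 10 is not settled, because 7 were not well above background in the small intestine, with bounds from 60.4-fold for *Nfe2* to 342-fold for *Add2*. By its bound *Nfe2* lay below the 88.7-fold of the B cell gene *Cd79b*, which is not among the 10. *Hbe1*, an embryonic globin gene, gave 4421 and 5107 in the spleen against 6.3 and 9.5 in the small intestine, where it was not well above background, and was at least 265-fold higher in the spleen. Globin genes are close copies of each other, and the probe may have read more than 1 of them. *S100a8* and *S100a9*, which form calprotectin in neutrophils, were at least 206-fold and 187-fold higher in the spleen. The remaining gene was the alpha-defensin *Defa5*. In each of the 20 genes of both directions the arrays of one tissue lay apart from those of the other. Genes called for large differences in each dye separate almost by that choice, so this is a description and not support. The same holds wherever called genes are said below not to overlap.

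**Figure D1:**
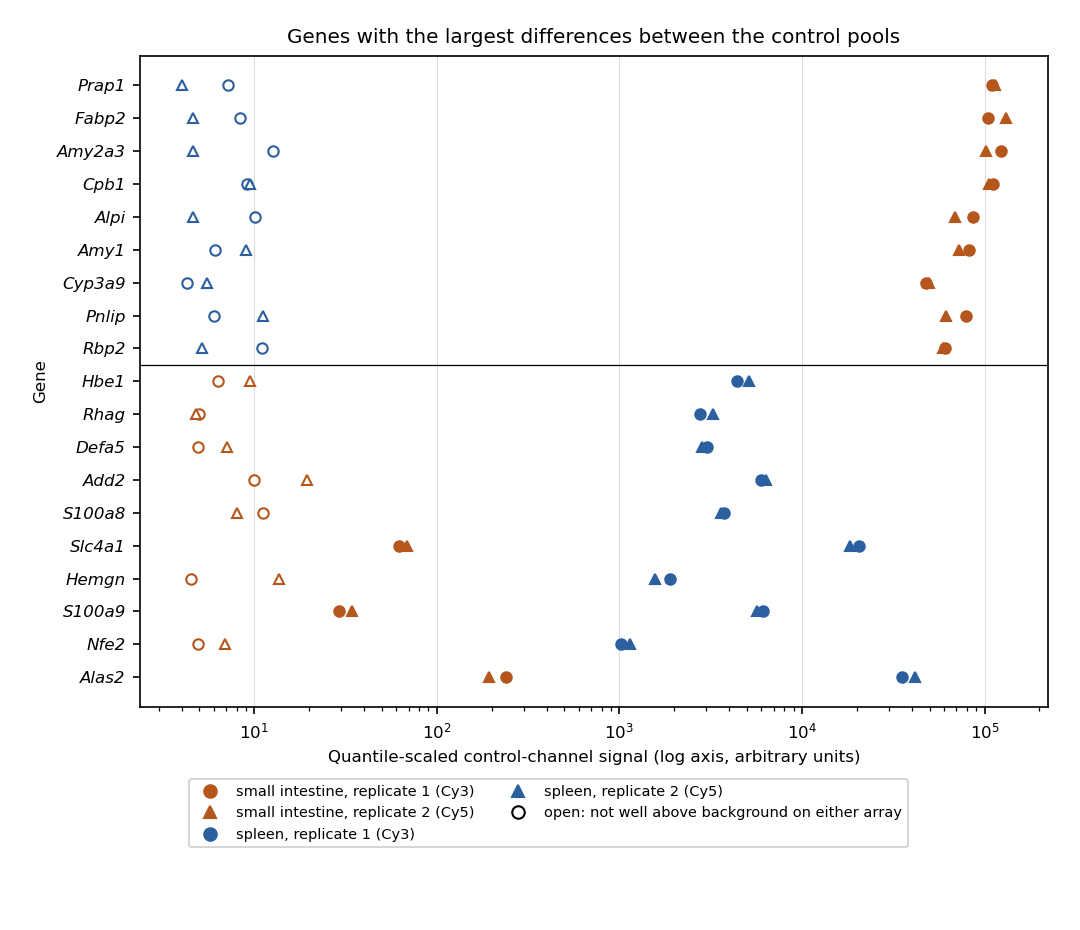
Control-channel signal (log axis, arbitrary units) of 9 of the 10 genes with the largest difference toward the small intestine (upper) and the 10 toward the spleen (lower), with 1 point per array and open points where neither array of that tissue was well above background. For each of the 19 genes shown, which were chosen for their large differences, both arrays of one tissue lie apart from both arrays of the other. Of these genes, 16 have open points in the dim tissue.

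Genes of brush border digestion were higher in the small intestine in 12 of the 13 measured members, with a median log2 difference of 7.93 beside -0.085 over all genes. Under normexp background correction with an offset of 50, which compresses differences of dim signals, this median was 5.45, and with dim signals at their bound it was 7.00. Only 5 of the 13 were above background in both tissues, and 4 of these were called. The limma fit called all 13, beside 31% of all genes, with adjusted p = 0.00116 for *Dpp4*. It includes the control channels by which the members were chosen, so this count is not separate support. *Alpi* gave 86301 and 68552 in the small intestine against 10.1 and 4.6 in the spleen. The meprin subunits *Mep1a* and *Mep1b*, metallopeptidases of the brush border, gave 13903 and 12741 (*Mep1a*) and 11062 and 10627 (*Mep1b*) in the small intestine and at most 6.9 in the spleen. No array of one tissue reached the other for any of these 3 genes. *Dpp4*, a dipeptidyl peptidase that lymphocytes also carry, was the member not called, at 0.70 ± 0.08. *Enpep*, an aminopeptidase, was read as higher in the small intestine (at least 348-fold), but another of its probes was called higher in the spleen, at -1.86.

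Nutrient and ion transporters were higher in the small intestine in 20 of 21 members, 9 of them among the 9 that were above background in both tissues. Their median difference was 5.52 (4.39 with dim signals at their bound, 3.52 under normexp). *Slc15a1*, the proton-coupled peptide transporter PEPT1, gave 9248 and 11031 in the small intestine against 4.0 and 4.1 in the spleen, at least 494-fold higher. *Slc3a1*, the heavy chain of a cystine and dibasic amino acid transporter, gave 7773 and 6716 against 6.9 and 11.9. *Slc2a2*, the glucose transporter GLUT2, gave 3427 and 3645 against 6.3 and 4.2. All 3 were not well above background in the spleen. The smallest difference of a called transporter was that of *Slc7a7*, a cationic amino acid transporter of the basolateral side, at 1.74 ± 0.14. The chloride channel gene *Cftr* was not called because the dyes disagreed (2.41 ± 2.41).

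Genes of fat, sterol and retinoid absorption included the single largest measured difference of an epithelial list, that of *Fabp2*. This rank is not settled, because *Fabp2* was not well above background in the spleen. Under normexp *Apoa4* lay above it (10.53 against 10.35). Of the 20 members, 18 were higher in the small intestine, 1 was higher in the spleen and 1 was not called, and the median was 7.88 (6.14 with dim signals at their bound, 4.96 under normexp). Of the 10 above background in both tissues, 8 were higher in the small intestine. *Apoa4*, an apolipoprotein of chylomicrons, gave 149123 and 176481 in the small intestine against 25.7 and 33.1 in the spleen, a difference of 12.44 ± 0.08. *Npc1l1*, the intestinal cholesterol uptake protein, gave 18941 and 16089 against 16.9 and 9.5. *Cd36* went the other way. This fatty acid translocase, which macrophages and platelets also carry, gave 2064 and 2174 in the small intestine against 5631 and 5907 in the spleen, 2.72-fold higher in the spleen, with limma adjusted p = 0.000365 over the 8 pools. *Acat2* was not called (0.40 ± 0.00).

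Drug and xenobiotic metabolism genes were higher in the small intestine in 14 of 17 members, and in 5 of the 8 above background in both tissues, with a median of 6.13 (5.55 with dim signals at their bound, 4.27 under normexp). The P450 genes *Cyp3a9* and *Cyp3a62* gave 47566 and 49796 (*Cyp3a9*) and 17531 and 17798 (*Cyp3a62*) in the small intestine, and none of their 4 spleen values was above 5.5. Genes of the Cyp3a family are close copies, and their probes may share signal. *Sult1b1*, a sulfotransferase of phenols and thyroid hormone, was at least 616-fold higher in the small intestine. *Nqo1*, *Ephx1* and *Gstm1*, a quinone reductase, an epoxide hydrolase and a glutathione transferase found in many tissues, were not called, at 0.93 ± 0.03, 0.70 ± 0.10 and -0.72 ± 0.02.

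Epithelial identity was measured by genes of cell junctions and the cytoskeleton and by transcription factors. All 16 junction and cytoskeleton members were higher in the small intestine, 13 of them above background in both tissues, with a median of 7.99 (7.99 with dim signals at their bound, 6.84 under normexp). *Epcam*, the epithelial adhesion molecule, gave 41717 and 41354 in the small intestine against 45.7 and 36.1 in the spleen. *Lgals4*, a galectin of the gut epithelium, gave 67836 and 55377 against 60.5 and 54.2. *Krt20*, a keratin of differentiated enterocytes, gave 121507 and 107949.5 against 28.8 and 29.1, and 1 of its 2 spleen arrays was above background. The 4 arrays fell into separate ranges by tissue for each of these genes. *Cdh1*, E-cadherin, had the smallest difference of the group (1.33 ± 0.00).

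All 15 transcription factors of the intestinal list were higher in the small intestine, and 6 of the 15 were above background in both tissues. Their median was 5.43 (3.72 with dim signals at their bound, 2.67 under normexp). *Cdx2*, the homeobox factor that specifies intestinal epithelium, gave 11543 and 11374 in the small intestine against 76.7 and 82.3 in the spleen, 144-fold higher (limma adjusted p = 7.57e-07 over the 8 pools). *Gata4* gave 3894 and 3709.6 against 12.3 and 10.0, and *Creb3l3*, a factor of lipid metabolism shared with liver, gave 17819.9 and 19748 against 31.5 and 26.8. The smallest difference was that of *Hnf4a*, a nuclear receptor of gut and liver, at 2.30 ± 0.48.

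The promoter windows of called genes were searched for 6 factor motifs on both strands, in RefSeq sequence of build GRCr8 from 250 bases before to 50 bases after the gene start. The HNF4A motif CAAAGTCCA was held by 13 of 1113 windows of genes higher in the small intestine (1.17%), by 4 of 1048 of genes higher in the spleen (0.382%) and by 0.375% of all windows. It was found in *Alpi*, *Lgals4* and *Slc3a1*, which are shown as the named epithelial genes that held it, and in *Ins1* and *Ins2*. Capitals mark the motif or its reverse complement, and a match is a description of the letters, not of binding.
*Alpi* (chr9:95224731-95225030, minus strand): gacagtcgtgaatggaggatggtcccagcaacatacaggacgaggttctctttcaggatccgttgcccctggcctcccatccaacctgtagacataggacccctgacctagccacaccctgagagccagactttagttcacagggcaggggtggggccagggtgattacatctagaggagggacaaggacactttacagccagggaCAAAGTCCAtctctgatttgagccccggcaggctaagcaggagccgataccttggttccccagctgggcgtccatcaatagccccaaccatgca
*Lgals4* (chr1:93252035-93252334, plus strand): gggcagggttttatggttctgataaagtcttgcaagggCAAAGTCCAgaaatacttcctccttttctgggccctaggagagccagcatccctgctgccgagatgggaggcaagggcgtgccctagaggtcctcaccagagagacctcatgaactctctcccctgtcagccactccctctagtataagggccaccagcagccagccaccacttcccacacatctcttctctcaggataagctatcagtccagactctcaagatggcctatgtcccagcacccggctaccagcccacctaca
*Slc3a1* (chr6:15394700-15394999, minus strand): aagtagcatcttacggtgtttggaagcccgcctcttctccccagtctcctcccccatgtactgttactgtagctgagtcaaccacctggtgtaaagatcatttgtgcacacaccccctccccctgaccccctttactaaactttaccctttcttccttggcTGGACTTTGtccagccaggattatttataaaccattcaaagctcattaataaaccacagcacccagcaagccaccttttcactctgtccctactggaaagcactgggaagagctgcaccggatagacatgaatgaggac

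The match began 44 bases before the start in *Alpi*, 212 bases before it in *Lgals4* and 89 bases before it in *Slc3a1*. The CDX2 motif TTTATGGC was in 0.629% of windows of genes higher in the small intestine, in 0.191% of those higher in the spleen and in 0.546% of all. The EBF1 motif was in 0.988%, 0.573% and 0.841% in the same order. The HNF1 motif was found in 0 of the 5283 windows of member genes.

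Secretory cells of the epithelium were represented by few probes for goblet cells and by more for antimicrobial defence and hormones. The 3 measured goblet cell genes were all higher in the small intestine. *Tff3*, the trefoil peptide of mucus, gave 111236 and 95294 against 20.0 and 15.0 in the spleen, and *Zg16*, a lectin of mucus granules that pancreatic acinar cells also make, gave 94564 and 98155 against 31.2 and 36.4. *Fut2*, a fucosyltransferase of mucins, had a difference of 4.84 ± 0.41.

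Antimicrobial genes differed in both directions. Of 11 members, 7 were higher in the small intestine and 2 were higher in the spleen, beside 21.4% and 20.8% of all genes, and 2 were not called. Of the 4 above background in both tissues, 1 was higher in the small intestine and 1 was higher in the spleen, beside 16.7% and 19.5% of all such genes. The median over all 11 was 3.19 (2.46 with dim signals at their bound, 1.11 under normexp). *Reg3b* and *Reg3g*, lectins that bind bacteria, gave 19633 and 20771 (*Reg3b*) and 2264 and 2282 (*Reg3g*) in the small intestine. In the spleen *Reg3b* was not well above background on either array, while *Reg3g* was on 1 of 2. The alpha-defensin *Defa24* gave 18746 and 18445 in the small intestine against 4.6 and 5.9 in the spleen. *Defa5* was the reverse, with 4.9 and 7.1 in the small intestine against 3005 and 2838 in the spleen, at least 163-fold higher in the spleen. No small intestine array of *Defa5* and no spleen array of *Defa24* was well above background. Alpha-defensins are made by Paneth cells and by neutrophils, and their genes are close copies that the probes may share. *Lyz2*, the lysozyme of macrophages, was higher in the spleen (-1.58 ± 0.08), and *Np4*, another defensin gene, was not called (0.19 ± 0.12).

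Gut hormone and enteroendocrine genes were higher in the small intestine in 12 of 13 members and in 4 of the 5 above background in both tissues, with a median of 5.23 (3.96 with dim signals at their bound, 2.77 under normexp). *Chgb*, chromogranin B of secretory granules, gave 8202 and 10390.1 in the small intestine against 4.8 and 8.6 in the spleen. *Sst*, somatostatin, gave 4145 and 4627 against 5.1 and 6.4, and *Ghrl*, ghrelin, gave 4464 and 4948 against 21.1 and 28.5. Both spleen arrays of these 3 genes were not well above background. *Gip* and *Cck*, hormones of the upper small intestine, had differences of 7.17 ± 0.10 and 2.92 ± 0.03. The prohormone convertase gene *Pcsk1* was not called (-0.61 ± 0.49). Pancreatic islets also express *Sst*, *Ghrl*, *Gcg* and the chromogranins.

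Genes of pancreatic acinar cells gave high signals in the small intestine pools, although the labels name no pancreas among the tissues taken. All 15 measured acinar genes were higher in the small intestine, with a median log2 difference of 10.68 (9.72 with dim signals at their bound, 8.90 under normexp). Their summed signal was 1265487 and 1139233 on the small intestine arrays against 2131 and 2189 on the spleen arrays. *Cpb1*, procarboxypeptidase B, gave 110907 and 105916 in the small intestine against 9.1 and 9.5 in the spleen. *Prss1*, a trypsinogen, gave 139929.7 and 152493 against 23.2 and 56.6, the latter above background. *Ptf1a*, a transcription factor of acinar cells that is not a secreted enzyme, gave 356 and 419.6 against 4.2 and 4.9. Both spleen arrays were below both small intestine arrays for each of the 15 genes, 7 of which were above background on both spleen arrays. All 15 passed the rule in the LO pools too, where the difference of *Prss1* was 12.04. Amylase and trypsinogen genes are close copies whose probes may share signal.

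All 4 islet genes were likewise higher in the small intestine, with a summed signal of 4323 and 4125 there against 105 and 123 in the spleen. *Ins1* and *Ins2*, both insulin genes, gave 1145 and 1178 (*Ins1*) and 1231 and 1239.7 (*Ins2*) in the small intestine against 59.4 and 72.4 (*Ins1*) and 33.5 and 27.6 (*Ins2*) in the spleen. *Iapp*, islet amyloid polypeptide, gave 97.5 and 127 against 4.5 and 4.9. *Pdx1*, a homeobox factor of pancreas and duodenum, gave 1849.5 and 1581 against 7.2 and 18.2. In the liver control pools, scaled over all 16 channels, *Cpb1* was at 107 and 48.9 and *Ins1* at 75.1 and 109.5. The part of pancreatic RNA in the differences of the other small intestine genes was not tested, including *Zg16*, the *Reg3* genes, *Slc2a2* and the hormone genes, which the pancreas is also known to express.

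**Figure D2:**
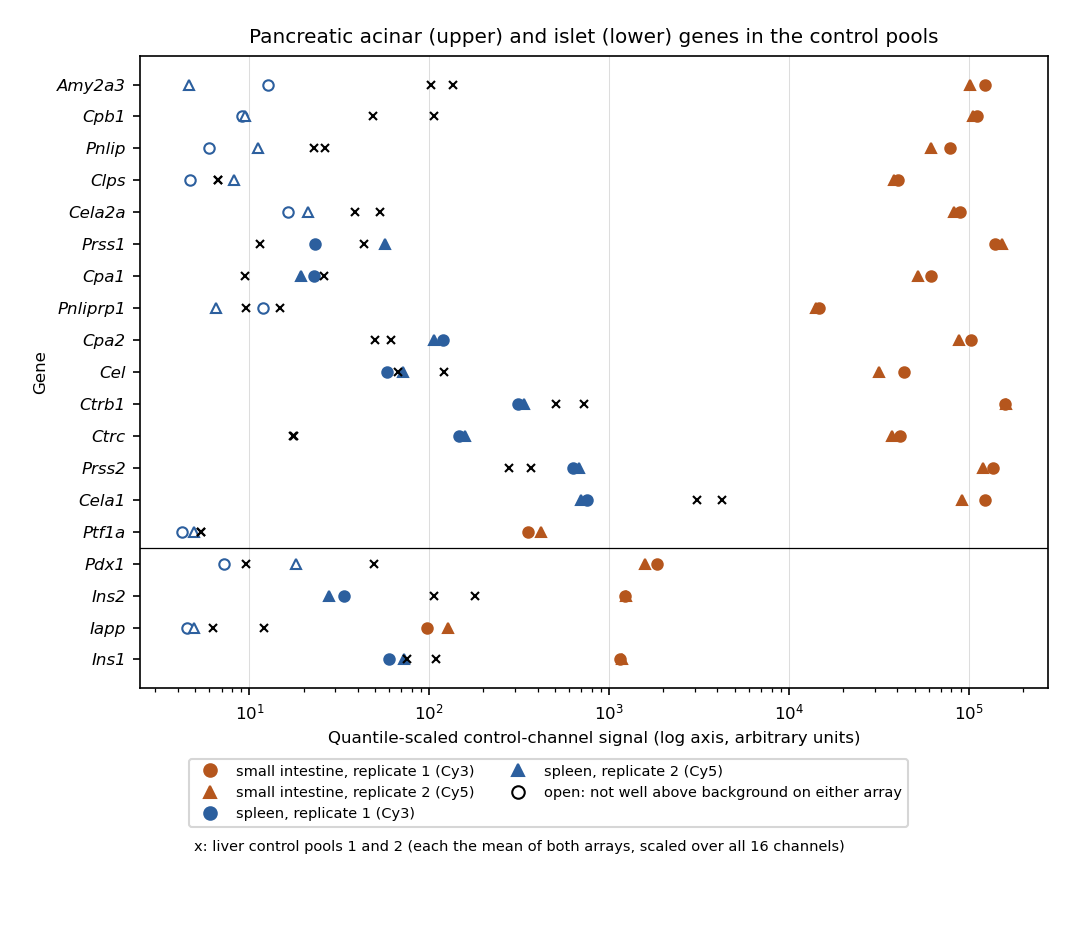
Control-channel signal (log axis, arbitrary units) of the 15 pancreatic acinar genes (upper) and 4 islet genes (lower), with 1 point per array for small intestine and spleen and crosses for the liver control pools. Both small intestine points lie above both spleen points for all 19 genes, each of which was called by the rule in both dyes.

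Muscle and nerve of the intestinal wall gave smaller differences. Of 5 smooth muscle genes, 3 were higher in the small intestine, with a median of 1.83 (1.83 with dim signals at their bound, 1.07 under normexp). *Cnn1*, calponin of smooth muscle, gave 1059.6 and 681 in the small intestine against 50.4 and 40.1 in the spleen, and *Des*, desmin, gave 6639 and 5694 against 1838 and 1626. *Tagln*, transgelin, was not called (0.22 ± 0.10). Of 7 genes of the enteric nervous system, 4 were higher in the small intestine, but only 1 of the 4 above background in both tissues, with a median of 2.74 (2.69 with dim signals at their bound, 1.40 under normexp). Called genes not well above background in the spleen included *Elavl4*, a neuronal RNA-binding protein (133 and 161 against 4.3 and 4.6), and *Snap25*, a synaptic vesicle fusion protein (119 and 147 against 5.0 and 5.0). The glial gene *Sox10* was not called (0.62 ± 0.24).

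Red cell genes had the lowest measured median of the 27 lists, which did not hold with dim signals at their bound, where B cell genes were lower, or under normexp, where B cell and platelet genes were lower. Of 15 members, 14 were higher in the spleen, 9 of them among the 10 above background in both tissues, and the median was -5.70 (-4.67 with dim signals at their bound, -2.97 under normexp). *Slc4a1*, the band 3 anion exchanger of the red cell membrane, gave 20661 and 18243 in the spleen against 61.8 and 68.9 in the small intestine, 298-fold higher in the spleen (limma adjusted p = 6.11e-07 over the 8 pools). *Alas2*, the first enzyme of heme synthesis in red cell precursors, gave 35324 and 41806 against 238 and 194. *Rhag*, the Rh-associated glycoprotein, gave 2768 and 3272 in the spleen and was not well above background in the small intestine, and was at least 168-fold higher in the spleen. The spleen and small intestine arrays did not overlap for these genes. *Gata1*, the transcription factor of red cells and platelets, was at least 25.5-fold higher in the spleen, while *Cpox*, a heme synthesis enzyme of all tissues, was not called (-1.07 ± 0.27).

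Platelet genes were higher in the spleen in 5 of 5 members, 4 of them above background in both tissues, with a median of -3.85 (-3.85 with dim signals at their bound, -3.39 under normexp). *Gp1bb*, a chain of the von Willebrand factor receptor, gave 3607 and 3646 in the spleen against 50.3 and 59.7 in the small intestine. *Ppbp*, a chemokine of platelet granules, gave 1066 and 1018 against 27.2 and 26.7, and *Gp9* gave 1165 and 1142 against 73.1 and 86.9.

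Granulocyte and mast cell genes split by cell type. The neutrophil genes *S100a8*, *S100a9* and *Cxcr2* and the eosinophil gene *Prg2* were higher in the spleen, and the mast cell genes *Mcpt1*, *Ms4a2* and *Fcer1a* were higher in the small intestine. *S100a9* gave 6125 and 5658 in the spleen against 29.1 and 34.1 in the small intestine, and *Prg2* gave 3897 and 4029.7 against 100.4 and 127. *Mcpt1*, the chymase of mucosal mast cells, gave 4494 and 4544 in the small intestine against 94.7 and 93.6 in the spleen, a difference of 5.58 ± 0.02 (4.63 under normexp). The receptor chains *Ms4a2* and *Fcer1a* were above background in the small intestine only, at least 2.24-fold and 1.36-fold higher there, the latter bound under the 2-fold of the rule. *Cebpe* was not called (0.57 ± 0.05).

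All 9 measured B cell genes were higher in the spleen, 8 of them above background in both tissues, with a median of -4.69 (-4.69 with dim signals at their bound, -3.39 under normexp). *Cd79b*, a signalling chain of the B cell receptor, gave 20814 and 21032 in the spleen against 237 and 235 in the small intestine, 88.7-fold higher in the spleen (limma adjusted p = 2.75e-06 over the 8 pools). *Cd72* and *Blk*, a surface receptor and a kinase of B cells, gave 1091 and 1177 (*Cd72*) and 1204 and 1344 (*Blk*) in the spleen against 27.8 and 28.5 (*Cd72*) and 43.1 and 45.9 (*Blk*) in the small intestine. *Blnk*, an adaptor of the receptor, had the smallest difference (-1.75 ± 0.17). Only 2 plasma cell genes were measured. *Mzb1*, a chaperone of antibody assembly, was higher in the spleen (-2.68 ± 0.06), and *Sdc1*, a syndecan that epithelia also express, was higher in the small intestine (2.35 ± 0.13).

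T cell genes were higher in the spleen in 14 of 17 members and in 8 of the 11 above background in both tissues, with a median of -3.33 (-3.33 with dim signals at their bound, -2.44 under normexp). *Cd2*, an adhesion receptor of T cells, gave 968 and 845 in the spleen against 9.2 and 11.1 in the small intestine, at least 50.5-fold higher in the spleen. *Cd5*, a receptor that damps T cell receptor signals, gave 471 and 502 against 17.2 and 17.9. Neither gene was well above background in the small intestine. *Cd8a* differed by -4.17 ± 0.01 and *Cd4* was at least 6.91-fold higher in the spleen. *Cd3g*, *Ctla4* and *Thy1* were not called, at -0.27 ± 0.18, -0.35 ± 0.05 and 0.68 ± 0.38. The limma fit called *Thy1*, which neurons and stromal cells also express, higher in the small intestine (adjusted p = 0.0443).

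Cytotoxic cell genes differed in both directions. Of 12 members, 9 were higher in the spleen (7 of the 10 above background in both tissues), and the median was -2.61 (-2.61 with dim signals at their bound, -1.81 under normexp). The largest were -6.49 ± 0.06 for *Gzmk*, -3.04 ± 0.16 for *Klrk1* and -2.98 ± 0.25 for *Klrd1*, which encode a granzyme and a pair of killer cell lectin receptors. *Gzmb*, the granzyme of killer lymphocytes that cleaves after aspartate, was instead higher in the small intestine. It gave 1135 and 1405 in the small intestine against 549 and 534 in the spleen, 2.33-fold higher (limma adjusted p = 0.00126 over the 8 pools), with a log2 difference of 1.22 ± 0.25 in the control pools and 1.45 in the LO pools. *Gzma* lay close to the threshold (0.94 ± 0.05) and *Faslg* was not called (-0.58 ± 0.20). *Prf1*, the pore-forming perforin, was higher in the spleen (-2.53 ± 0.12).

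Macrophage and red pulp genes were higher in the spleen in 14 of 15 members, all of which were above background in both tissues, with a median of -2.97 (-2.97 with dim signals at their bound, -2.78 under normexp). *Hmox1*, the heme oxygenase that opens the heme ring of old red cells, gave 19326 and 21731 in the spleen against 879 and 803 in the small intestine. *Vcam1*, an adhesion molecule, gave 36324 and 38233 against 1313 and 1450.4, and *Itgad*, an integrin chain of red pulp macrophages, gave 5890.4 and 5969 against 206 and 162. The tissues did not overlap for any of the 3. *Slc40a1*, the iron exporter ferroportin of both red pulp macrophages and enterocytes, was the member not called (0.48 ± 0.26), with 1275 and 1101 in the small intestine against 804 and 895 in the spleen, a gap below the 2-fold of the rule.

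Antigen presentation genes showed a smaller and uneven difference. Of 10 members, 7 were higher in the spleen, with a median of -1.78 (-1.78 with dim signals at their bound, -1.71 under normexp). *RT1-DOb* and *RT1-DOa*, the chains that restrain peptide loading in B cells, differed by -4.01 ± 0.22 and -3.91 ± 0.04, and the costimulator *Cd86* by -3.24 ± 0.10. The classical chain *RT1-Da* and the invariant chain *Cd74* differed less, by -1.80 ± 0.03 and -1.18 ± 0.20. *RT1-Bb*, *RT1-DMa* and *Ctss* were not called, at -0.92 ± 0.15, -0.36 ± 0.09 and -0.26 ± 0.08.

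Genes of lymphoid chemokines and splenic stroma were higher in the spleen in 7 of 10 members, and in 5 of the 8 above background in both tissues, with a median of -3.79 (-3.11 with dim signals at their bound, -1.97 under normexp). *Ccl21*, the chemokine that draws T cells into lymphoid zones, gave 30291 and 30582 in the spleen against 1539 and 1537 in the small intestine. *Ltb*, lymphotoxin beta, gave 16649.9 and 17098 against 941 and 846. *Nkx2-5*, a homeobox factor of spleen and heart development, gave 209.5 and 228 in the spleen and was not well above background in the small intestine. *Madcam1*, the vascular address for gut-homing lymphocytes, ran opposite to the group with 295 and 315 in the small intestine against 110.2 and 103 in the spleen (1.51 ± 0.13).

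Promoter windows of the spleen genes were searched in the same way. The PU.1 motif GAGGAAGT was in 45 of 1048 windows of genes higher in the spleen (4.29%), in 25 of 1113 of genes higher in the small intestine (2.25%) and in 2.44% of all windows. *Cd5* is shown as the named spleen gene that held it. The window of *Lgals4*, a named gene higher in the small intestine, held it too. The GATA1 motif AGATAAG was in 3.05% of windows of genes higher in the spleen, 2.88% of those higher in the small intestine and 2.77% of all. Among the windows of the red cell list 2 of 9 held it, in *Epor* (the erythropoietin receptor, -1.12 ± 0.05) and *Rhd* (a Rh blood group gene, -7.00 ± 0.04). It was also in the windows of *Fabp2* and *Pnlip*, higher in the small intestine, and of *Ltb*, higher in the spleen.
*Cd5* (chr1:216811160-216811459, minus strand): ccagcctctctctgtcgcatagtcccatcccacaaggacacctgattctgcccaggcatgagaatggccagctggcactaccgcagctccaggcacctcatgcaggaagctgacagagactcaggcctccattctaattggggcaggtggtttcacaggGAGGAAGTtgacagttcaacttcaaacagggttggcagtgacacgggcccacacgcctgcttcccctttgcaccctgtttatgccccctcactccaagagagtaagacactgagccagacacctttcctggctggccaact
*Epor* (chr8:28770273-28770572, minus strand): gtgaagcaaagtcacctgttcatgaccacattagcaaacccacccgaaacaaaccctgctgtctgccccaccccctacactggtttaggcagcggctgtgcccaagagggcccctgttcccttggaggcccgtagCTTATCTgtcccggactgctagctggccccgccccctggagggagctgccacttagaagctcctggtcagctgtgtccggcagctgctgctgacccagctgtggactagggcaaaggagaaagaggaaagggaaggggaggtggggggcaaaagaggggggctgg
*Rhd* (chr5:152370950-152371249, plus strand): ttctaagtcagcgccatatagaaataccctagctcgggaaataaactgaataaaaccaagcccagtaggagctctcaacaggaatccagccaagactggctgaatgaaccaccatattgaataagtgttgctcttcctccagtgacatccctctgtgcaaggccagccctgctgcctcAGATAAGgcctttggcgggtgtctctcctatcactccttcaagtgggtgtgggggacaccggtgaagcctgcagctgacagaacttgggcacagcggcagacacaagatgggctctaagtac

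The motif began 91 bases before the start in *Cd5*, 115 bases before it in *Epor* and 72 bases before it in *Rhd*. The window of *Alas2* held no match to these letters.

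**Figure D3:**
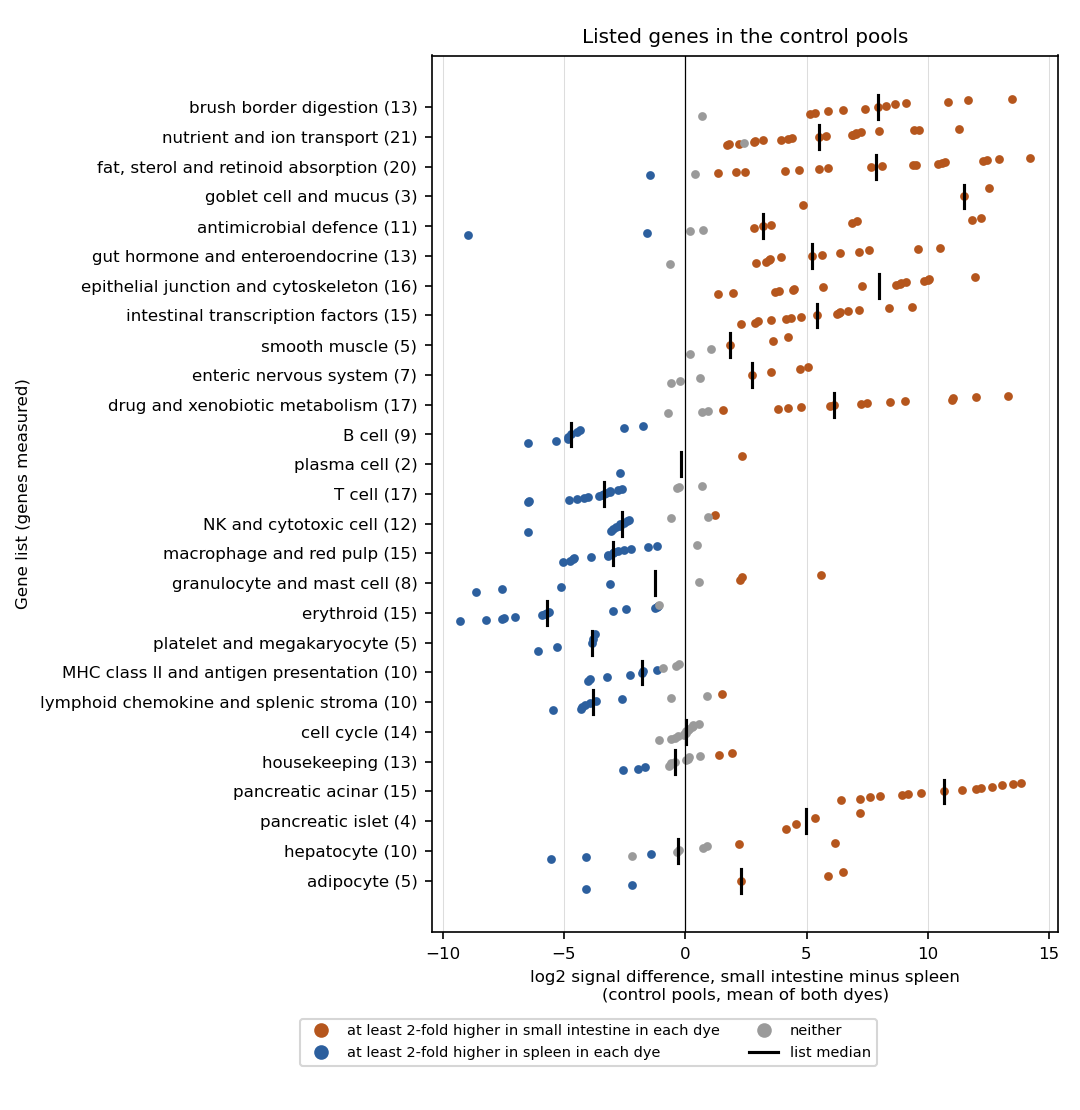
Log2 signal difference of the control pools, small intestine minus spleen, for every measured gene of 27 lists, with 1 point per gene and a bar at the list median. Lists of absorption and epithelium lie to the right of 0, lists of blood and immune cells mostly to the left, cell cycle genes near 0, and reference genes on both sides of it.

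Both tissues renew their cells throughout life, and none of the 14 measured cell cycle genes was called in either direction. Their median difference was 0.03, with a range from -1.09 to 0.558. *Cdk1*, the kinase that starts mitosis, gave 5547 and 5213 in the small intestine against 5824 and 4722 in the spleen, a difference of 0.04 ± 0.15, and the tissues overlapped. *Ccnb2* and *Ccna2*, mitotic cyclins, differed by 0.01 ± 0.06 and -0.06 ± 0.03. *Mcm7*, a subunit of the replicative helicase, had the largest difference (-1.09 ± 0.16) and missed the rule in 1 dye, but passed it, toward the spleen, with the median shift as the scaling. The limma fit called 3 of the 14 higher in the spleen.

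Reference genes were called about as often as other genes. Of 13 members, 2 were higher in the small intestine and 3 were higher in the spleen, beside 21.4% and 20.8% of all genes, and 8 were not called. With the 75th percentile or the median shift as the scaling, *Pgk1*, a glycolytic kinase, was also called, higher in the small intestine. *Gapdh*, the glycolytic enzyme, gave 95777 and 81414 in the small intestine against 22445 and 24680.3 in the spleen, 3.75-fold higher in the small intestine (limma adjusted p = 2.96e-05 over the 8 pools). *Actb*, beta-actin, gave 90403 and 82999.9 against 66508 and 88393, and these overlapped (0.18 ± 0.38). *Ywhaz*, a 14-3-3 protein, differed by 0.03 ± 0.08. *Hprt1*, *Rplp0* and *Gusb* were higher in the spleen, at -1.95 ± 0.17, -1.66 ± 0.12 and -2.54 ± 0.04, and *Sdha*, a subunit of succinate dehydrogenase, was higher in the small intestine (1.37 ± 0.17).

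**Figure D4:**
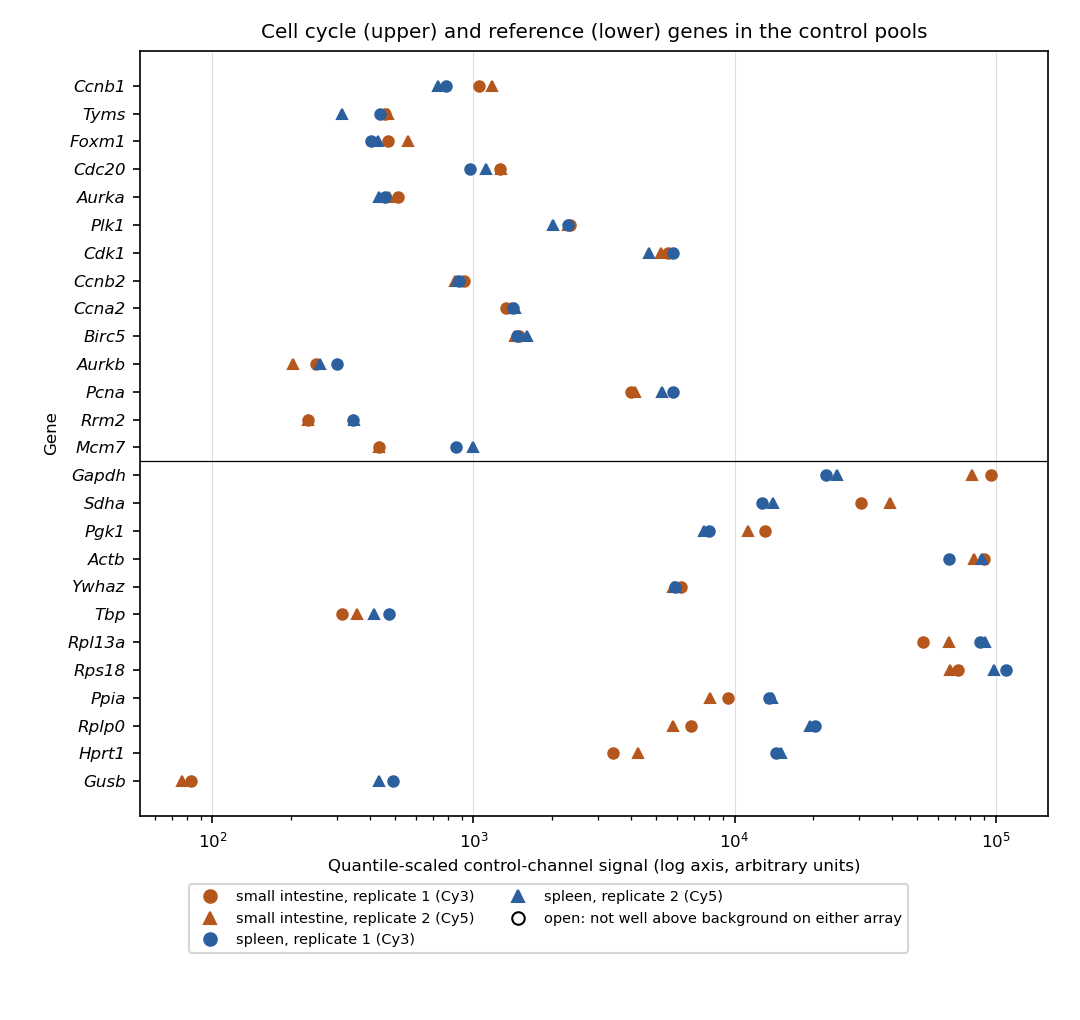
Control-channel signal (log axis, arbitrary units) of 14 cell cycle genes (upper) and 12 of the 13 reference genes (lower), with 1 point per array. The 4 points of most cell cycle genes overlap or lie close together, with *Mcm7* the widest apart. Among the called reference genes, *Gapdh*, *Hprt1*, *Rplp0* and *Gusb* separate by tissue.

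Markers of other cell types than those of intestine, spleen and pancreas were mixed. Of 10 hepatocyte genes, 2 were higher in the small intestine and 3 were higher in the spleen, beside 21.4% and 20.8% of all genes. The other 5 were not called. Of the 6 above background in both tissues, 1 was higher in the small intestine and 1 was higher in the spleen. The 10 genes had summed signals of 2627 and 2356 in the small intestine against 8217 and 8427 in the spleen. *Alb*, albumin, was not well above background in the small intestine (11.2 and 8.7) and gave 461 and 457 in the spleen, beside 156069 and 160886 in the liver control pools. *Tf*, transferrin, gave 409 and 435 in the small intestine against 7090.2 and 7315 in the spleen. *Fga*, the fibrinogen alpha chain, went the other way, with 1425 and 1297 against 20.1 and 17.8. Adipocyte genes were also split, with *Cidec*, *Adipoq* and *Retn* higher in the small intestine (at least 46.4-fold, at least 19.1-fold and 4.97-fold) and *Cfd* and *Fabp4* higher in the spleen (17.1-fold and 4.62-fold). Their summed signal was 4634 and 4558 in the small intestine against 43715 and 43916 in the spleen. Of the spleen sums *Cfd* alone gave 41035 and 41354, and the median difference of the 5 genes was 2.31. The part of these cell types in the other differences was not tested.

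The tissue differences of the LO pools, in which both tissues came from rats given LO, followed those of the control pools closely. Across member probes the correlation of both sets of differences was 0.995, and since the pools share arrays this is a description. Each of the 10 largest genes of either direction passed the rule again, with *Slc4a1* at -8.40, *S100a9* at -7.08 and *Alas2* at -7.44 among those above background in both tissues. *Apoa4* gave 11.73, *Epcam* 10.33 and *Cd79b* -6.59. *Cdk1* was again not called (-0.17), nor was *Actb* (-0.06), but 1 of the 14 cell cycle genes passed the rule toward the spleen.

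**Figure D5:**
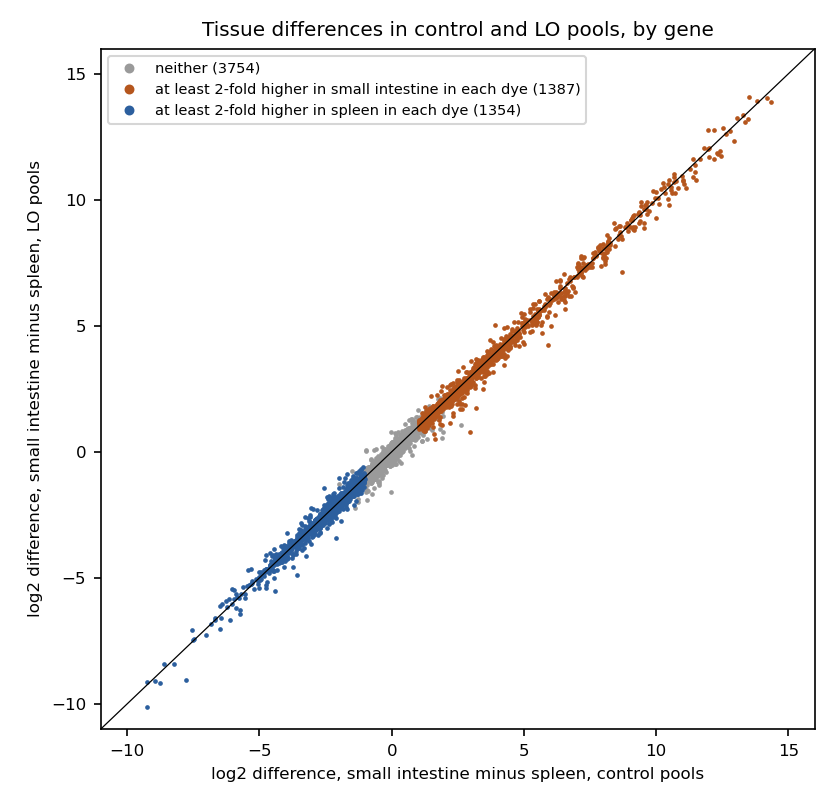
Log2 difference of small intestine minus spleen in the LO pools against that in the control pools, for 6495 genes, with the line of equal values. Genes called in the control pools, 1387 toward the small intestine and 1354 toward the spleen, lie along the line.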

How the data were processed

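Pooled total RNA was hybridized to 4×44K rat whole-genome arrays (Agilent) with the dye-swap approach, and images were extracted with Agilent Feature Extraction 11.0.1.1, per the processing notes of the submitters. Signal intensity values deposited by the authors are background-subtracted and LOWESS dye-normalized, and flags for background, saturation and outliers were deposited beside them as other values. Here, log2 control-channel intensities of 43065 non-control features (314 with an outlier flag were left out) were quantile-scaled over 4 channels, copies of a probe were averaged, and tissues were compared within a dye. A probe was a member where at least 0.5 of its copies were.

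Fits of tissue and LO to 8 pool means used limma 3.58.1 in R 4.3.3, with Benjamini-Hochberg adjustment, 4 residual and 1.79 prior degrees of freedom. The arrays of a pool hold the same RNA, so the fit took 8 pool means, which are not all independent. Its contrast sets the control and LO pools of the small intestine against those of the spleen. Both pools of a tissue share arrays and a slide, so the p-values leave out the spread between slides. Tables and figures used Python 3.11.15, numpy 2.4.6, pandas 2.3.3 and matplotlib 3.10.9. Symbols came from accessions matched to RefSeq genes, for 10757 probes. Of 464 listed genes 324 had a probe and 305 were members. Some genes are not reported here. Named were the 10 largest genes of each direction, up to 3 genes of each list with 1 of the other direction, and genes such as *Gapdh* and *Actb*; other list genes are given as context, and *Vil1*, *Sis*, *Cd3e*, *Spic*, *Tlx1* and *Hba-a2* were matched to no probe. Members, lists and motifs were chosen with earlier results of these data known. In simulated data of 20000 probes with 200 changed by 2 on the log2 scale, the dye rule recovered 199 and limma 200, with 0 and 5 unchanged probes called. The simulated probes came from features above background, with equal numbers raised and lowered and the same noise for all. They do not cover dim probes or the larger and uneven shares called in the data. Alternatives were other scaling, normexp, filters, thresholds, counting units, left-out replicates and pools, and a replicate block. The number of pools limits the precision. The deposited value table and the authors' ratios were not used.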

Additional observations from a re-analysis of the deposited data

How the results depend on the processing

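Toward the small intestine 4506 probes became 2957 with normexp, 2797 among probes above background on all 4 channels, 2391 at a log2 difference of 2, and 1387 counted as genes. Toward the spleen 5450 became 3117 with normexp, 2065 at a log2 difference of 2 and 1354 as genes. Without replicate 1 or 2 the counts ran from 5146 to 5293 and from 6190 to 6568. In limma, 6719 became 10122 with small intestine and spleen pools only and 2328 with control pools only, where the spleen count of 8873 became 1942. With control pools only each tissue is 1 pool, and its spread is taken from the liver pools. Without replicate 1 or 2 limma gave 5949 to 6178 and 7567 to 7963. Same-numbered arrays of the tissues deviated from their means with a correlation of 0.073 across probes. With the replicate number as a block it gave 6215 and 8305, and without pairing by replicate the dye rule gave 5140 and 6293. The LO count of 9307 of 9956 became 4119 of 4456 at a log2 difference of 2. Over the alternatives of the named genes, 304 values stayed within the dye SD, and 176 moved. Leaving out either replicate cannot, by its arithmetic, move a value beyond this SD. All 96 values stayed in each of these alternatives, and a called gene cannot change sign in them. Under normexp 88 moved and 8 stayed. The 75th percentile shift moved 47 and kept 49, and the median shift moved 41 and kept 55. The sign changed for 0 values of called genes and for 2 of genes not called, *Cdk1* (-0.07 without replicate 2) and *Actb* (-0.09 without replicate 1). The 75th percentile shift kept the dye rule, limma and LO counts within 1.5 times, as did the median shift for the dye rule. The excess toward the spleen was lost with the former (4865 toward the small intestine and 4851 toward the spleen). The cause was not tested. With 1 control pool per tissue, no variation between rats was measured.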
